A study of Schizosaccharomyces pombe with 9 samples.

Results

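The genes described here lie near the right end of chromosome I of Schizosaccharomyces pombe, the fission yeast. They were taken by name as every measured gene whose identifier begins with one of 5 cosmid clones. From the chromosome end inward these clones are SPAC750, SPAC186, SPAC869, SPAC922 and SPAC1039. The rule found 35 of the 4915 genes in the count table. The rule itself used no measured value, but the region was chosen with earlier results of these data known. The current annotation holds 45 protein-coding genes on these clones. The other 10 are not analysed here. All of these except SPAC922.09 lie on SPAC750 and SPAC186, some of them nearer the end than any measured gene.

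Polyadenylated RNA was sequenced from log-phase cultures in rich medium in 3 genotypes, all of which carry a Mit1 protein fused to TetR, a bacterial DNA-binding protein. TetR-Mit1-clr4oe (clr4oe below, 2 libraries, with another not analysed here) carries the fusion and, as its label reads, overexpresses clr4. TetR-Mit1-K587A (K587A below, 3 libraries) carries the fusion with the substitution K587A in Mit1, which published work places in the ATPase domain. TetR-Mit1 (3 libraries) carries the fusion without that substitution. The sample descriptions give 1 strain per genotype, so an effect of genotype and one of strain cannot be told apart. No label says that the libraries of a genotype came from separate cultures. The p-values therefore measure the spread between these libraries, which may be technical. The labels give neither the promoter of clr4oe nor the site to which TetR was directed. None of the 3 genotypes lacks the fusion.

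Near the chromosome ends of fission yeast, nucleosomes carry H3K9 methylation, which the enzyme Clr4 deposits. Chromodomain proteins such as Swi6 and Chp2 bind that mark. Mit1 is the chromatin remodeller of SHREC, a complex that also holds the histone deacetylase Clr3 and that limits transcription in these domains. Subtelomeric gene sets of fission yeast are known for transporters, cell-surface proteins and metabolic enzymes, many of them lowly transcribed in rich medium. Members of some of these families recur at several chromosome ends.

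The libraries held 13838210 to 14401186 counts in clr4oe, 10367168 to 15920802 in K587A and 13086567 to 14181298 in TetR-Mit1. The clr4 gene (SPBC428.08c) stood at 284 and 273 CPM in clr4oe, against 55.5, 60.4 and 58.4 CPM in K587A and 53.7, 53.9 and 60.9 CPM in TetR-Mit1. CPM is a library's counts scaled by its total with edgeR's TMM factors. The clr4oe label was thus matched by its gene in both libraries. The mit1 gene (SPBP35G2.10) stood at 344 and 357 CPM in clr4oe, at 532, 521 and 549 CPM in K587A and at 387, 393 and 379 CPM in TetR-Mit1, and its count does not show the substitution. Against TetR-Mit1 its log2 fold change was 0.47 in K587A and -0.14 in clr4oe (edgeR adjusted p = 2.37e-11 and 0.0029). The genotypes thus also differed in mit1 level. The right-end genes took 0.1917% and 0.1955% of all counts in the clr4oe libraries, 0.1659% to 0.1695% in K587A and 0.2139% to 0.2185% in TetR-Mit1. A count of 3, taken as the floor of detection, corresponds to 0.188 to 0.289 CPM across the 8 libraries, a limit that covers counting error only.

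Levels differed widely along the region. Divided by mRNA length, the median in TetR-Mit1 was 33.6 CPM per kb for the 2 SPAC750 genes and 6.08 CPM per kb for the 6 SPAC186 genes. It was 1.06 CPM per kb for the 11 SPAC869 genes, 31.6 CPM per kb for the 5 SPAC922 genes and 31.7 CPM per kb for the 11 SPAC1039 genes. All genes of the table had a median of 45.5 CPM per kb. The highest level per length was that of SPAC922.04, an uncharacterized gene at 870 CPM per kb. SPAC1039.02, annotated as a phosphoprotein phosphatase, followed at 107 CPM per kb, and cat1, an arginine and lysine transporter, at 68.3 CPM per kb. The lowest was SPAC869.03c, annotated as a urea transporter, at 0.0772 CPM per kb.

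**Figure D1:**
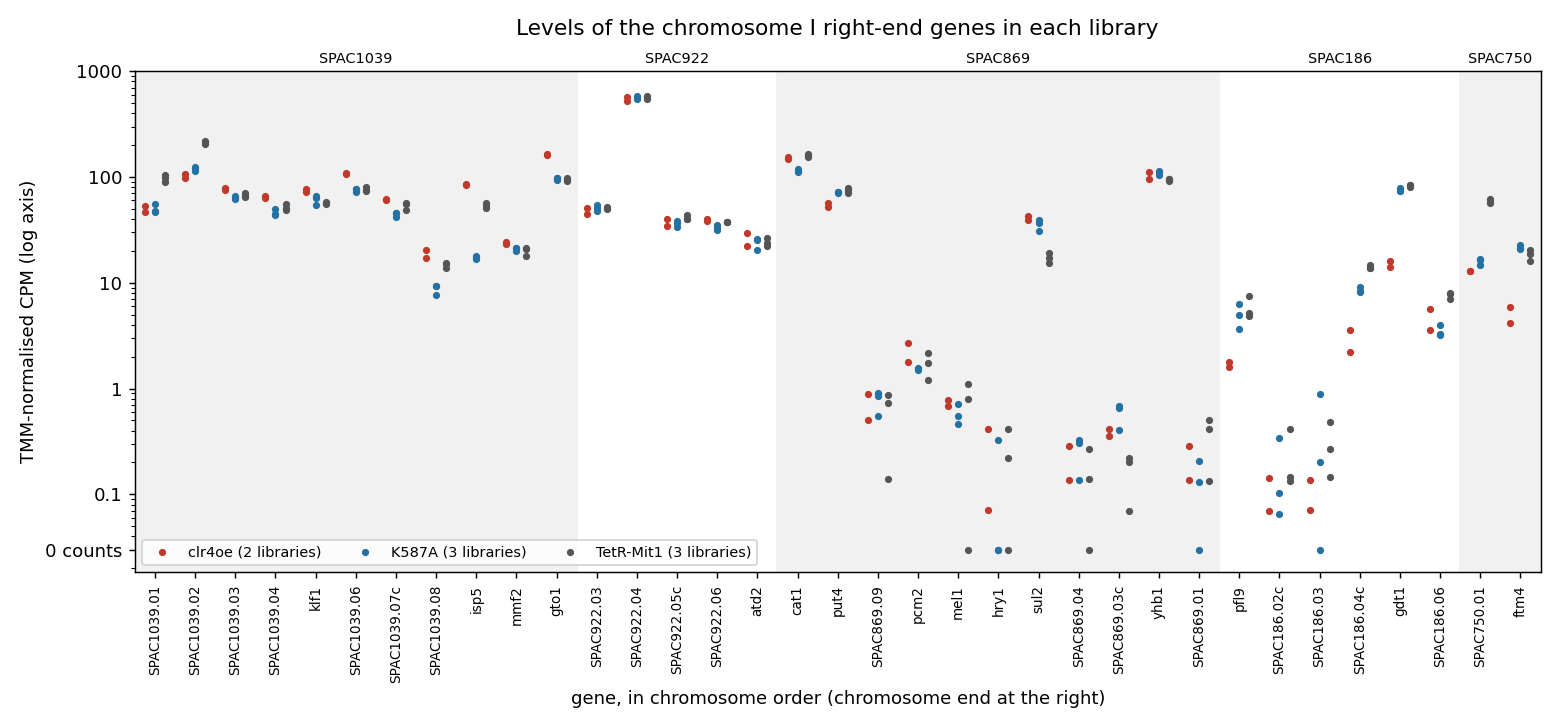
TMM-normalised CPM (log axis) of the 35 genes in each library, in chromosome order with the end at the right. Points are libraries of clr4oe, K587A and TetR-Mit1, and points on the bottom line had 0 counts. The clr4oe points lie below the others for most SPAC750 and SPAC186 genes, and 9 genes stay under 3 CPM in every library.

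Of the 35 genes, 29 passed the filter on low counts and were tested. The 6 that did not pass were SPAC186.02c (a hydroxyacid dehydrogenase), SPAC186.03 (an L-asparaginase), SPAC869.01 (an amidase), SPAC869.03c, SPAC869.04 (formamidase-like) and hry1 (SPAC869.06c, an HHE-domain protein). They had between 0 and 13 counts in each library. SPAC869.03c had 6 and 5 counts in clr4oe, 10, 10 and 4 counts in K587A, and 1, 3 and 3 counts in TetR-Mit1. A further 3 genes that were tested stayed under 3 CPM in every library. They were mel1 (SPAC869.07c, a melibiase), pcm2 (SPAC869.08, which repairs damaged aspartyl residues) and SPAC869.09 (a Con-6 family protein). None of these 3 passed the test in any comparison. In the third TetR-Mit1 library mel1 had no counts, which allows up to 0.201 CPM with TMM scaling. Its other libraries stood at 0.689 and 0.787 CPM in clr4oe, at 0.548, 0.459 and 0.713 CPM in K587A and at 1.11 and 0.800 CPM in TetR-Mit1.

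Both clr4oe and K587A were set against TetR-Mit1, to ask how each genotype differed from it. These comparisons share the 3 TetR-Mit1 libraries. A gene was called at an adjusted p under 0.05 in edgeR's quasi-likelihood test. In clr4oe against TetR-Mit1, 19 of the 29 tested genes were called, or 65.5%, beside 65.1% of all 4887 tested genes. Of the 19, 10 were higher (32.1% of all genes) and 9 lower (33% of all genes). For K587A over TetR-Mit1, 14 were called, or 48.3%, beside 52.3% of all genes. Of these, 2 were higher (27.3% of all genes) and 12 lower (25% of all genes). For clr4oe over K587A, 17 were called, or 58.6%, beside 71.7% of all genes. Of these, 10 were higher (35.4% of all genes) and 7 lower (36.4% of all genes). The number of called genes was thus near or below the background in each comparison. With upper-quartile scaling in place of TMM the split was 8 higher and 12 lower in clr4oe against TetR-Mit1, and 9 higher and 9 lower in clr4oe against K587A.

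Large changes made up more of the right-end genes than of the table. In clr4oe against TetR-Mit1, 7 of the 29 were called with at least a 2-fold change, beside 4.32% of all genes. Of the 7, 6 were lower and 1 higher, where 3.07% and 1.25% of all genes were. K587A against TetR-Mit1 had 4, beside 1.8% of all genes, 3 of them lower and 1 higher, where 1.41% and 0.389% of all genes were. The direct comparison of clr4oe with K587A had 6, beside 7.8% of all genes, 4 of them lower (4.11% of all genes) and 2 higher (3.68% of all genes). The groups' libraries did not overlap for 22 of the 29 genes in clr4oe against TetR-Mit1 (74.9% of all genes), 15 in K587A against TetR-Mit1 (58.7% of all genes) and 20 between clr4oe and K587A (79.2% of all genes). The median log2 fold change over the 29 genes was 0.11 for clr4oe over TetR-Mit1, -0.14 for K587A over TetR-Mit1 and 0.19 for clr4oe over K587A, and over all genes it was -0.003, 0.006 and -0.013. These medians moved with single libraries. For clr4oe over TetR-Mit1 the median was -0.001 without the first clr4oe library, 0.052 without the third TetR-Mit1 library and 0.068 without the first. For K587A over TetR-Mit1 it was -0.068 without the second K587A library and -0.088 without the second TetR-Mit1 library. For clr4oe over K587A it was 0.112 without the first clr4oe library. The data are from bulk cultures, in which fewer cells with a transcript and less of it per cell cannot be told apart.

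**Figure D2:**
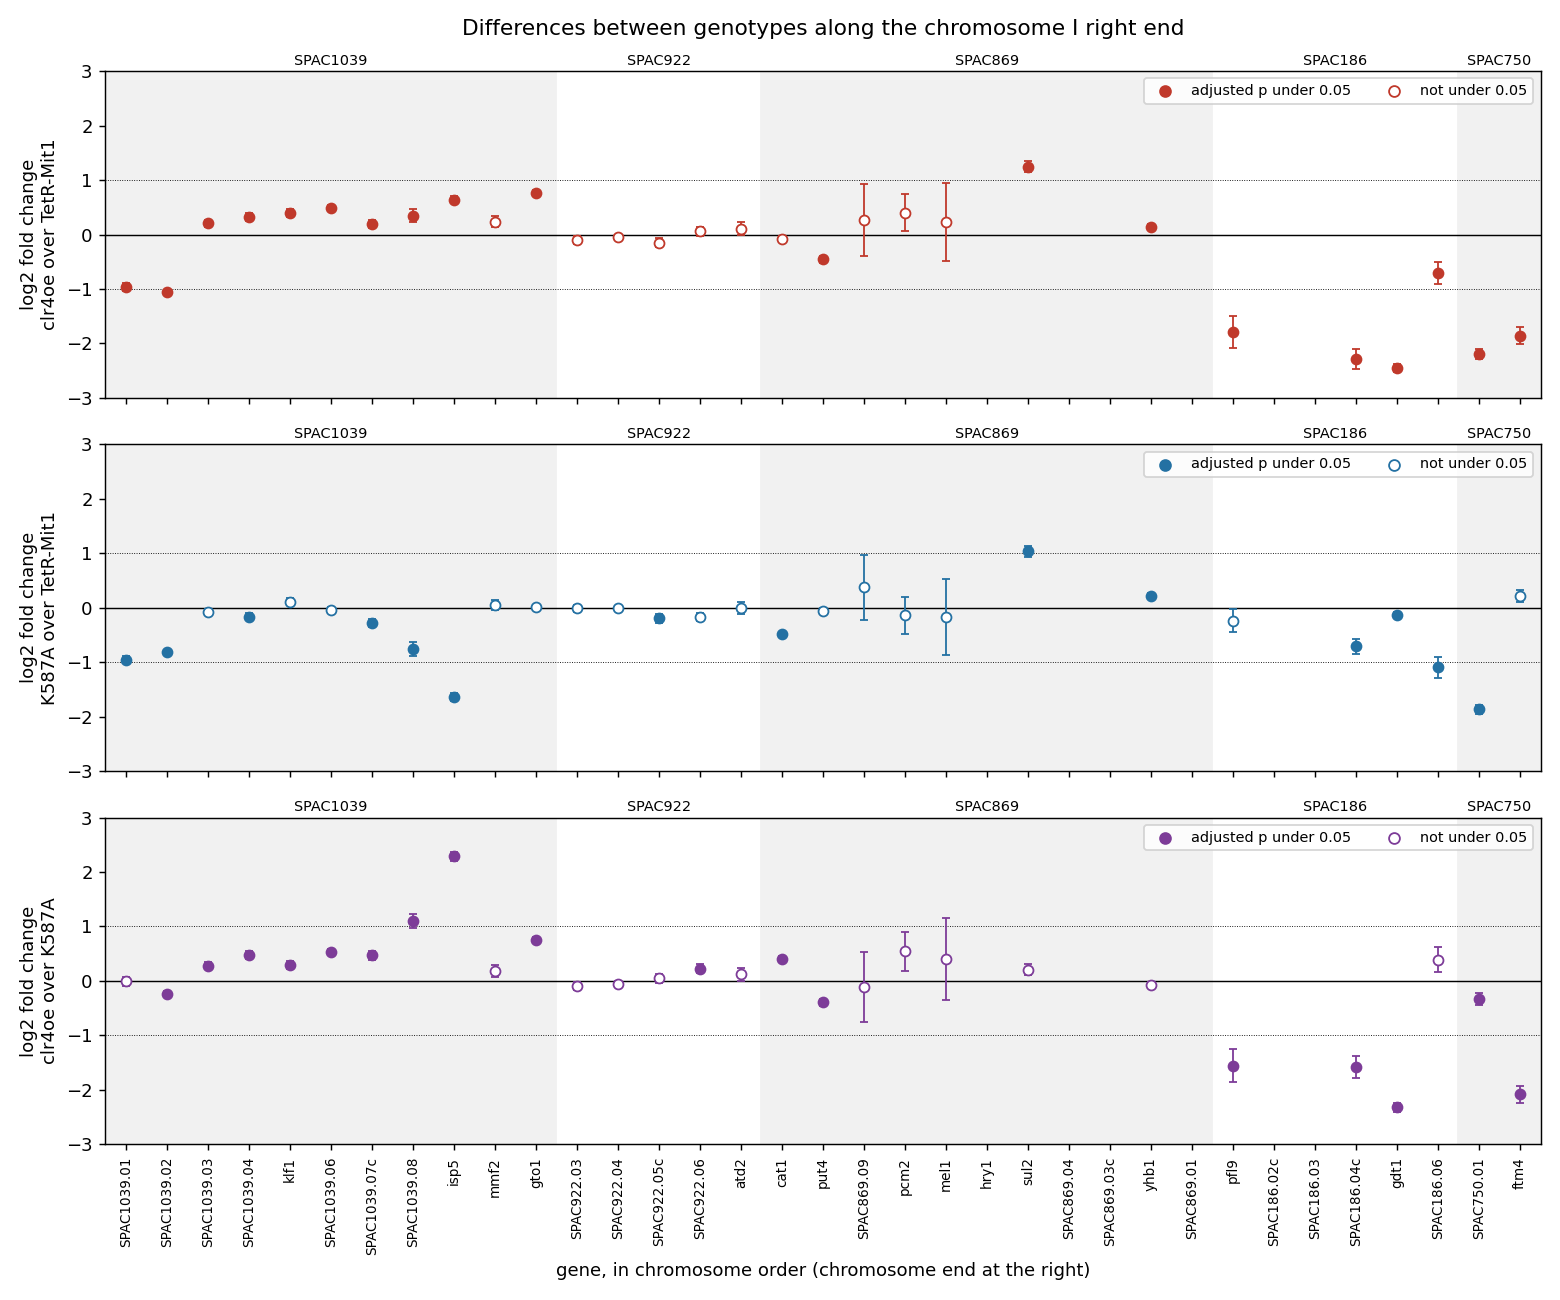
Log2 fold change with its standard error for the 29 tested genes, in chromosome order with the end at the right, for clr4oe over TetR-Mit1 (top), K587A over TetR-Mit1 (middle) and clr4oe over K587A (bottom). Filled points have an adjusted p under 0.05 and dotted lines mark a 2-fold change. In the top panel all 6 tested SPAC750 and SPAC186 genes are lower and 8 of 11 SPAC1039 genes are higher.

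The tested genes nearest the end, on clones SPAC750 and SPAC186, were lower in clr4oe. All 6 tested genes of these clones fell there, with a median log2 fold change of -2.03, where 33% of all genes fell. Of the 6, 5 fell at least 2-fold, where 3.07% of all genes did. In K587A 4 of the 6 fell, with a median of -0.47 over the 6, where 25% of all genes fell. Of the 6, 2 fell at least 2-fold, where 1.41% of all genes did. The 8 genes of the 2 clones summed to 40.9 and 43.9 CPM in clr4oe, against 137, 127 and 128 CPM in K587A and 190.0, 187 and 186.11 CPM in TetR-Mit1. The 3 genotypes did not overlap in that sum. The other 27 genes summed to 1862 and 1892 CPM in clr4oe, to 1639, 1644 and 1660 CPM in K587A and to 1871, 1848 and 1886 CPM in TetR-Mit1. There the clr4oe and TetR-Mit1 sums overlapped, and the K587A sums lay below both. A few genes made up most of the K587A difference. SPAC1039.02, SPAC1039.01, cat1 and isp5 averaged 212, 97.1, 160 and 54.0 CPM in TetR-Mit1 and 121, 49.9, 115 and 17.3 CPM in K587A. In K587A 8 of the 23 tested genes were called lower and 2 higher, beside 25% and 27.3% of all genes. In clr4oe SPAC1039.02 was lower, at 102 CPM, while gto1 was higher, at 162 CPM against 95.2 CPM in TetR-Mit1.

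The gene gdt1 (SPAC186.05c) encodes a GDT1-like protein, a family whose budding yeast member transports cations in the Golgi. It stood at 14.2 and 15.96 CPM in clr4oe, against 78.9, 73.1 and 73.9 CPM in K587A and 84.6, 83.1 and 80.2 CPM in TetR-Mit1. The clr4oe libraries were far below all others. Against TetR-Mit1 gdt1 fell by 2.45 ± 0.08 on the log2 scale in clr4oe (SE, edgeR adjusted p = 8.335e-19), the lowest value among the 29 genes. Against K587A it fell by 2.32 ± 0.08 in clr4oe (edgeR adjusted p = 1.359e-18). The K587A and TetR-Mit1 libraries lay close together without overlapping, with a log2 fold change of -0.13 ± 0.06 (edgeR adjusted p = 0.04642). That call was lost without the first or second TetR-Mit1 library (adjusted p = 0.143 and 0.105) and without the second or the third K587A library (0.156 and 0.116). It was also lost in DESeq2 (0.067), with upper-quartile scaling (0.0697) and with the replicate number as a block (0.0504).

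SPAC186.04c, its neighbour, is uncharacterized. It stood at 2.21 and 3.58 CPM in clr4oe, against 9.17, 8.40 and 8.15 CPM in K587A and 13.8, 14.6 and 13.7 CPM in TetR-Mit1. The 3 genotypes formed 3 separate levels. Against TetR-Mit1 it fell by 2.28 ± 0.19 on the log2 scale in clr4oe (edgeR adjusted p = 9.173e-11) and by 0.71 ± 0.14 in K587A (edgeR adjusted p = 1.122e-04). The difference between clr4oe and K587A was itself called (log2 fold change -1.58 ± 0.20, edgeR adjusted p = 1.849e-07).

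The pair ftm4 and pfl9 was lower in clr4oe and was not called in K587A. The outermost measured gene, ftm4 (SPAC750.05c), encodes a protein with transmembrane helices. Its level was 4.20 and 5.94 CPM in clr4oe, 21.2, 20.7 and 22.7 CPM in K587A, and 16.2, 18.8 and 20.2 CPM in TetR-Mit1. The K587A libraries were the highest, just above the TetR-Mit1 libraries. Its log2 fold change against TetR-Mit1 was -1.86 ± 0.16 in clr4oe (edgeR adjusted p = 1.417e-10) and 0.22 ± 0.11 in K587A (edgeR adjusted p = 0.09406). The gene pfl9 (SPAC186.01) encodes a DIPSY family glycoprotein, a family of cell-surface proteins. It had 1.58 and 1.79 CPM in clr4oe, against 6.30, 3.67 and 4.99 CPM in K587A and 5.22, 4.87 and 7.42 CPM in TetR-Mit1. K587A and TetR-Mit1 overlapped and clr4oe lay below both. For pfl9 the log2 fold change against TetR-Mit1 was -1.79 ± 0.30 in clr4oe (edgeR adjusted p = 1.002e-05) and -0.24 ± 0.21 in K587A (edgeR adjusted p = 0.3649). In clr4oe against K587A both genes were called, at -2.08 ± 0.16 for ftm4 and -1.56 ± 0.31 for pfl9 (edgeR adjusted p = 8.225e-12 and 8.424e-05).

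SPAC186.06 and SPAC750.01 fell in both genotypes. SPAC186.06, annotated as an isomerase, stood at 5.65 and 3.58 CPM in clr4oe, against 3.22, 4.002 and 3.26 CPM in K587A and 7.93, 7.78 and 6.95 CPM in TetR-Mit1. All clr4oe and K587A libraries lay below all TetR-Mit1 libraries, and clr4oe and K587A overlapped. It fell by 1.10 ± 0.19 on the log2 scale in K587A (edgeR adjusted p = 4.114e-05) and by 0.70 ± 0.20 in clr4oe (edgeR adjusted p = 0.004154). The clr4oe call rested on the second clr4oe library, without which the log2 fold change was -0.411 (adjusted p = 0.127). The difference between clr4oe and K587A was 0.39 ± 0.24 (edgeR adjusted p = 0.1381), and without that library it was 0.696 (adjusted p = 0.0207).

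SPAC750.01 is annotated as an aldo/keto reductase, a family of enzymes that reduce carbonyl groups. Its level was 12.8 and 12.9 CPM in clr4oe, 16.8, 16.5 and 14.6 CPM in K587A, and 61.3, 58.0 and 57.2 CPM in TetR-Mit1. It fell by 2.19 ± 0.09 on the log2 scale in clr4oe and by 1.87 ± 0.08 in K587A (edgeR adjusted p = 3.176e-16 and 5.261e-16). Between clr4oe and K587A the log2 fold change was -0.33 ± 0.11 (edgeR adjusted p = 0.01009), a call lost without the second clr4oe library (-0.313, adjusted p = 0.0507).

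**Figure D3:**
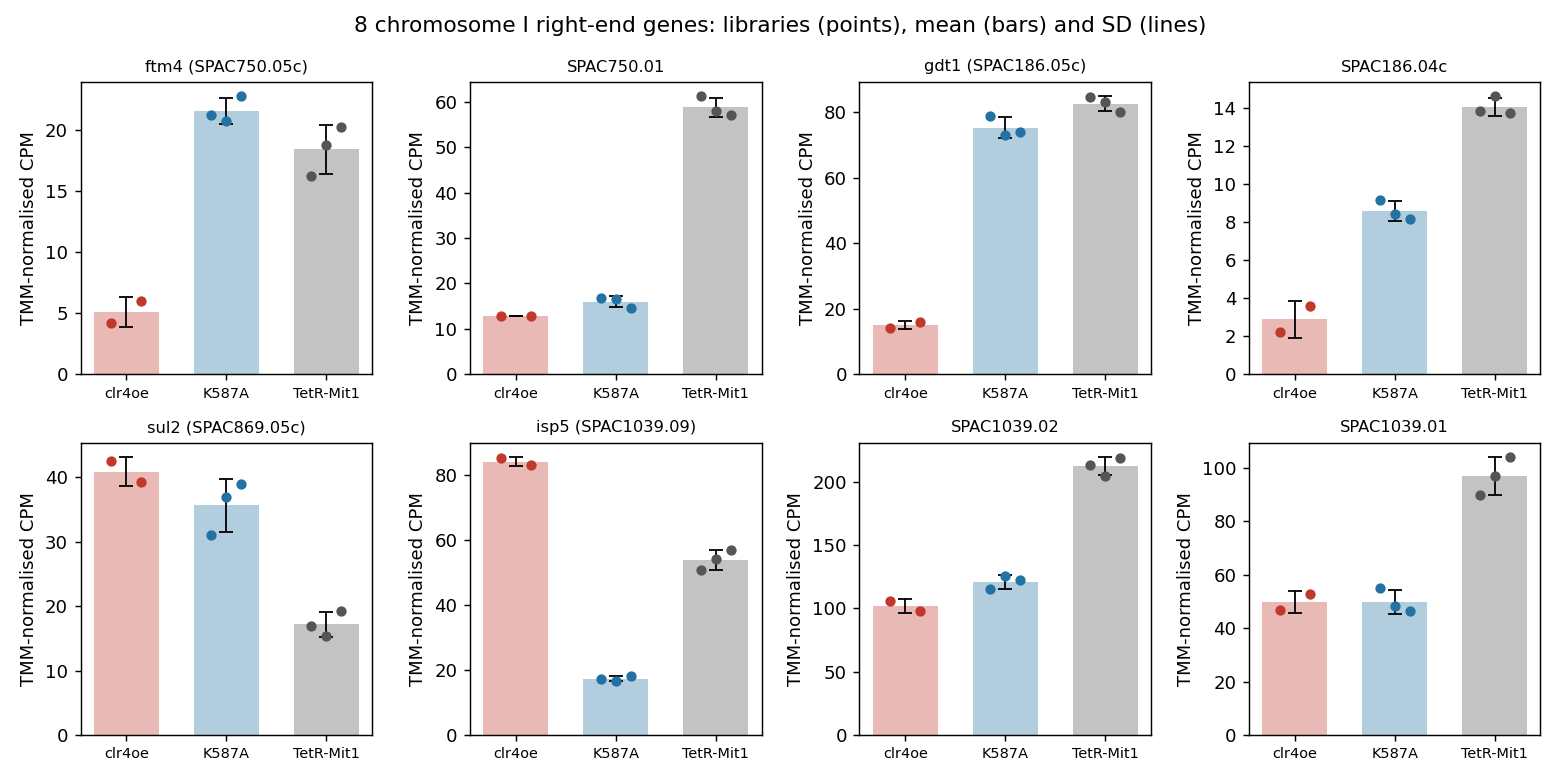
TMM-normalised CPM of 8 right-end genes in clr4oe, K587A and TetR-Mit1. Points are libraries, bars are means and lines are the SD (n = 2, 3 and 3). The gdt1, SPAC186.04c and ftm4 panels show clr4oe below both other genotypes, SPAC750.01, SPAC1039.02 and SPAC1039.01 show TetR-Mit1 above both, sul2 shows it below both, and isp5 shows clr4oe highest and K587A lowest.

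Some of these genes have near-identical relatives at other chromosome ends, so that reads could be shared between copies. How such reads were assigned is not given in the sources used here. The SPAC750.01 protein is 94.5% identical to that of SPAC977.14c, on chromosome I, which stood at 992 and 972 CPM in clr4oe, against 273, 273 and 260 CPM in K587A and 1056, 1027 and 1022 CPM in TetR-Mit1. SPAC977.14c fell by 1.94 ± 0.04 on the log2 scale in K587A (edgeR adjusted p = 1.724e-23), close to the value of SPAC750.01. In clr4oe the log2 fold change of SPAC977.14c was -0.08 ± 0.04 (edgeR adjusted p = 0.07812), while SPAC750.01 fell there. Per length, SPAC750.01 stood at 1.45% and 1.49% of the SPAC977.14c level in clr4oe, against 6.93%, 6.80% and 6.28% in K587A and 6.51%, 6.33% and 6.29% in TetR-Mit1. The share overlapped between K587A and TetR-Mit1 and was lower in both clr4oe libraries. Which copy the SPAC750.01 reads came from was not tested.

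The ftm4 protein is 99.7% identical to those of ftm1 (SPAC977.01), ftm5 (SPBC1348.02) and SPBPB2B2.19c. The ftm1 gene stood at 5.24 and 6.30 CPM in clr4oe, at 6.78, 6.95 and 5.503 CPM in K587A and at 6.54, 7.85 and 6.82 CPM in TetR-Mit1, and it was not called in any comparison. The other 2 copies stayed under 1 CPM in every library. The value of ftm4 is uncertain to the extent that reads were split among these copies. The protein of the untested SPAC186.03 is 98.6% identical to that of SPBPB21E7.09 on chromosome II. SPBPB21E7.09 stood at 40.2 and 41.6 CPM in clr4oe, against 35.1, 35.2 and 31.7 CPM in K587A and 21.1, 24.6 and 22.7 CPM in TetR-Mit1. The relative of SPAC1039.02 is SPBPB2B2.06c, on chromosome II, at 84.0% identity. Its level was 23.0 and 23.0 CPM in clr4oe, against 31.8, 34.4 and 34.9 CPM in K587A and 69.6, 58.4 and 65.3 CPM in TetR-Mit1. Like SPAC1039.02, it was lower in both genotypes, with log2 fold changes of -1.49 ± 0.09 in clr4oe and -0.94 ± 0.07 in K587A (edgeR adjusted p = 1.18e-13 and 5.586e-11).

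**Figure D4:**
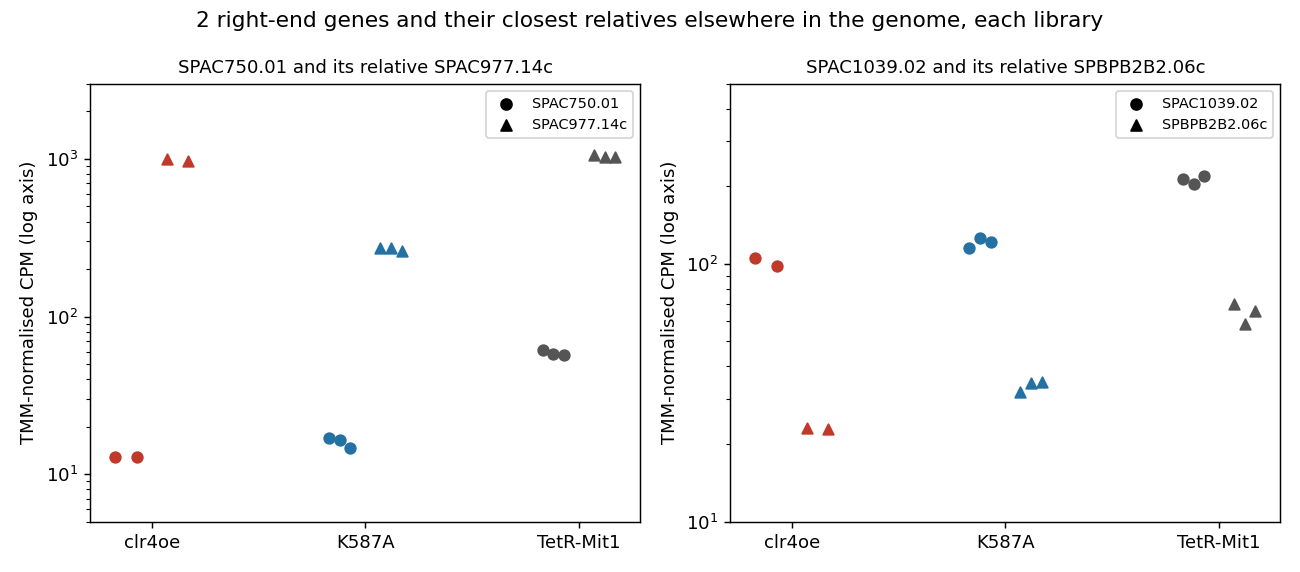
TMM-normalised CPM (log axis) in each library of SPAC750.01 with SPAC977.14c (left) and of SPAC1039.02 with SPBPB2B2.06c (right), in clr4oe, K587A and TetR-Mit1. Circles are the right-end genes and triangles their relatives. Both left-hand genes are low in K587A, and in clr4oe SPAC977.14c stays near its TetR-Mit1 level while SPAC750.01 is at 12.8 and 12.9 CPM.

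Clone SPAC869 holds 7 of the 9 genes that stayed under 3 CPM in every library, and 7 of its 11 genes were tested. Of these, 3 were called in clr4oe against TetR-Mit1, or 42.9%, beside 65.1% of all genes. In K587A against TetR-Mit1 3 were called, or 42.9%, beside 52.3% of all genes. Between clr4oe and K587A 2 were called, or 28.6%, beside 71.7% of all genes. In at least 1 comparison 4 were called, a share that is not given here for all genes. The sulfate transporter gene sul2 (SPAC869.05c) was higher in both genotypes. It stood at 42.5 and 39.3 CPM in clr4oe, at 31.1, 36.9 and 38.9 CPM in K587A and at 17.0, 15.4 and 19.3 CPM in TetR-Mit1. Every clr4oe and K587A library lay above every TetR-Mit1 library. It rose by 1.25 ± 0.10 on the log2 scale in clr4oe (edgeR adjusted p = 1.32e-10) and by 1.04 ± 0.10 in K587A (edgeR adjusted p = 2.095e-09). These were the highest values among the 29 genes in both comparisons. The difference between clr4oe and K587A was 0.21 ± 0.10 (edgeR adjusted p = 0.06292). It was called without the third K587A library (0.266, adjusted p = 0.0304) and with the replicate number as a block (0.274, adjusted p = 0.0136).

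The nitric oxide dioxygenase gene yhb1 (SPAC869.02c), whose enzyme detoxifies nitric oxide, differed little. It had 111 and 96.3 CPM in clr4oe, 104, 112 and 113 CPM in K587A and 94.8, 91.2 and 96.1 CPM in TetR-Mit1. The lowest clr4oe library lay just above the highest TetR-Mit1 library. In K587A yhb1 rose by 0.22 ± 0.05 on the log2 scale (edgeR adjusted p = 0.001364). In clr4oe the log2 fold change was 0.14 ± 0.06 (edgeR adjusted p = 0.03911), a call that was lost without the first clr4oe library (0.035, adjusted p = 0.685). It was also lost without the first or second TetR-Mit1 library (adjusted p = 0.0607 and 0.126).

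Both amino acid transporter genes of the clone were called, each in a different genotype. The proline transporter gene put4 (SPAC869.10c) averaged 54.7 ± 3.36 CPM in clr4oe, 71.9 ± 0.912 CPM in K587A and 74.9 ± 3.42 CPM in TetR-Mit1 (SD, n = 2, 3 and 3). It fell by 0.45 ± 0.06 on the log2 scale in clr4oe (edgeR adjusted p = 7.734e-07), and its log2 fold change in K587A was -0.06 (edgeR adjusted p = 0.3805). The neighbouring cat1 (SPAC869.11) averaged 152 ± 3.23 CPM in clr4oe, 115 ± 4.73 CPM in K587A and 160 ± 4.31 CPM in TetR-Mit1 (SD, n = 2, 3 and 3). It fell by 0.48 ± 0.04 in K587A (edgeR adjusted p = 4.98e-10), and its log2 fold change in clr4oe was -0.08 ± 0.05 (edgeR adjusted p = 0.1369). The difference between clr4oe and K587A was called for both, at -0.39 ± 0.06 for put4 and 0.41 ± 0.05 for cat1 (edgeR adjusted p = 5.674e-06 and 2.925e-08).

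The 5 genes of clone SPAC922 moved least. None was called in clr4oe against TetR-Mit1, where their log2 fold changes ran from -0.15 to 0.11. These 5 had unadjusted p-values of 0.09061 or more, and DESeq2 called none of them. With upper-quartile scaling SPAC922.04 (-0.103, adjusted p = 0.0402) and the transporter gene SPAC922.05c (-0.199, adjusted p = 0.0426) were called, and both were also called without the second clr4oe library (-0.119 and -0.256, adjusted p = 0.0479 and 0.0382). SPAC922.05c was called in K587A against TetR-Mit1, at a log2 fold change of -0.20 ± 0.08 (edgeR adjusted p = 0.03419). That call was lost without the third TetR-Mit1 library (adjusted p = 0.149) and without the first or second K587A library (0.151 and 0.0504). SPAC922.05c averaged 37.4 ± 4.03 CPM in clr4oe, 36.3 ± 2.13 CPM in K587A and 41.5 ± 2.20 CPM in TetR-Mit1 (SD, n = 2, 3 and 3). SPAC922.04 had 518 and 571 CPM in clr4oe, 580, 551 and 557 CPM in K587A and 579, 567 and 548 CPM in TetR-Mit1, with all 3 genotypes overlapping.

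The other SPAC922 genes are annotated as metabolic enzymes. SPAC922.06, a 3-oxoacyl-acyl carrier protein reductase, averaged 39.1 ± 1.28 CPM in clr4oe, 33.3 ± 1.98 CPM in K587A and 37.5 ± 0.368 CPM in TetR-Mit1 (SD, n = 2, 3 and 3). It was called in clr4oe against K587A at a log2 fold change of 0.23 ± 0.08 (edgeR adjusted p = 0.01474), a call lost without the third K587A library (0.054) and without the first clr4oe library (0.098). Against TetR-Mit1 its K587A log2 fold change was -0.17 ± 0.07 (edgeR adjusted p = 0.05758), and it was called without the first K587A library (-0.212, adjusted p = 0.0369). The aldehyde dehydrogenase gene atd2 (SPAC922.07c) averaged 25.8 ± 4.97 CPM in clr4oe, 23.9 ± 2.93 CPM in K587A and 24.0 ± 2.10 CPM in TetR-Mit1. Without the second clr4oe library it was called in clr4oe against K587A (0.321, adjusted p = 0.0453). SPAC922.03, an aminocyclopropane carboxylate deaminase, averaged 47.6 ± 4.06 CPM in clr4oe, 50.7 ± 3.15 CPM in K587A and 51.1 ± 1.24 CPM in TetR-Mit1.

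On clone SPAC1039, the innermost, most genes were higher in clr4oe. All 11 genes were tested and 8 of them rose and 2 fell in clr4oe against TetR-Mit1, with a median log2 fold change of 0.32, beside 32.1% higher and 33% lower of all genes. In K587A none rose and 6 fell, with a median of -0.16, beside 27.3% higher and 25% lower of all genes. Between clr4oe and K587A 8 rose and 1 fell, with a median of 0.47, beside 35.4% higher and 36.4% lower of all genes. Most of these changes were under 2-fold.

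The amino acid transporter gene isp5 (SPAC1039.09) moved in opposite directions in the 2 genotypes. It stood at 85.2 and 83.2 CPM in clr4oe, at 17.3, 16.7 and 18.0 CPM in K587A and at 50.8, 54.2 and 57.0 CPM in TetR-Mit1. The 3 levels were well apart, with clr4oe highest and K587A lowest. It rose by 0.64 ± 0.07 on the log2 scale in clr4oe (edgeR adjusted p = 6.235e-09) and fell by 1.65 ± 0.07 in K587A (edgeR adjusted p = 1.203e-15). The difference between clr4oe and K587A was 2.29 ± 0.08 (edgeR adjusted p = 8.511e-19), a ratio of 4.88.

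A further 3 genes of the clone were called as lower in K587A and higher in clr4oe. SPAC1039.08, annotated as a serine acetyltransferase, an enzyme type that acts in cysteine synthesis, had 20.5 and 17.1 CPM in clr4oe, 7.74, 9.38 and 9.37 CPM in K587A and 15.4, 13.8 and 15.2 CPM in TetR-Mit1. It fell by 0.75 ± 0.13 in K587A (edgeR adjusted p = 2.375e-05), and its log2 fold change in clr4oe was 0.35 ± 0.12 (edgeR adjusted p = 0.01758). The clr4oe call was lost without the first clr4oe library (0.209, adjusted p = 0.254) and without the second TetR-Mit1 library (0.302, adjusted p = 0.0691). Between clr4oe and K587A SPAC1039.08 differed by 1.10 ± 0.14 (edgeR adjusted p = 8.729e-08).

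SPAC1039.07c is annotated as an alanine-glyoxylate transaminase and SPAC1039.04 as a carboxylic acid transporter. SPAC1039.07c averaged 61.5 ± 0.708 CPM in clr4oe, 44.5 ± 2.31 CPM in K587A and 53.7 ± 4.61 CPM in TetR-Mit1 (SD, n = 2, 3 and 3). Its log2 fold change was 0.19 ± 0.07 in clr4oe and -0.28 ± 0.07 in K587A (edgeR adjusted p = 0.0237 and 0.00162). The clr4oe call was lost without either clr4oe library (adjusted p = 0.0689 without the first and 0.0947 without the second) and without the second TetR-Mit1 library (0.149). SPAC1039.04 averaged 64.3 ± 2.13 CPM in clr4oe, 46.4 ± 3.45 CPM in K587A and 51.7 ± 3.26 CPM in TetR-Mit1 (SD, n = 2, 3 and 3). Its log2 fold change was 0.32 ± 0.07 in clr4oe and -0.16 ± 0.07 in K587A (edgeR adjusted p = 4.355e-04 and 0.04577). The K587A call was lost without the second or the third TetR-Mit1 library (adjusted p = 0.213 and 0.076), without the first or second K587A library (0.168 and 0.134), and in DESeq2 (0.0601). Both differed between clr4oe and K587A, by 0.47 ± 0.08 and 0.48 ± 0.07 (edgeR adjusted p = 5.002e-06 and 2.49e-06).

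In clr4oe 4 more SPAC1039 genes rose that were not called in K587A against TetR-Mit1. The alpha-glucosidase gene gto1 (SPAC1039.11c) had 160 and 164 CPM in clr4oe, against 93.3, 97.8 and 96.9 CPM in K587A and 98.8, 94.5 and 92.4 CPM in TetR-Mit1. K587A and TetR-Mit1 overlapped, and clr4oe was higher by 0.77 ± 0.05 on the log2 scale than TetR-Mit1 (edgeR adjusted p = 4.425e-13). SPAC1039.06, annotated with D-serine ammonia-lyase activity, had 109 and 107 CPM in clr4oe, against 76.4, 76.5 and 71.9 CPM in K587A and 74.4, 75.2 and 80.8 CPM in TetR-Mit1. It rose by 0.50 ± 0.06 in clr4oe (edgeR adjusted p = 1.943e-08).

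The zinc cluster transcription factor gene klf1 (SPAC1039.05c) averaged 75.0 ± 3.50 CPM in clr4oe, 61.5 ± 5.91 CPM in K587A and 56.9 ± 1.21 CPM in TetR-Mit1 (SD, n = 2, 3 and 3). It rose by 0.40 ± 0.07 in clr4oe (edgeR adjusted p = 2.057e-05). In K587A its log2 fold change was 0.11 ± 0.06 (edgeR adjusted p = 0.169), and it was called without the first K587A library (0.187, adjusted p = 0.0172). The esterase or lipase gene SPAC1039.03 averaged 77.4 ± 2.14 CPM in clr4oe, 63.7 ± 1.67 CPM in K587A and 67.2 ± 2.47 CPM in TetR-Mit1 (SD, n = 2, 3 and 3), and rose by 0.20 ± 0.06 in clr4oe (edgeR adjusted p = 0.00397). All 4 were also higher in clr4oe than in K587A, at log2 fold changes of 0.28 to 0.76. The gene mmf2 (SPAC1039.10), of the Pmf1-like isoleucine synthesis family, averaged 23.6 ± 0.784 CPM in clr4oe, 20.8 ± 0.862 CPM in K587A and 20.1 ± 1.80 CPM in TetR-Mit1. It was not called in any comparison, at an adjusted p of 0.05174 in clr4oe against TetR-Mit1 (edgeR), and it was called there without the second TetR-Mit1 library (0.276, adjusted p = 0.0452). SPAC1039.06 overlaps SPAC1039.07c and mmf2 overlaps gto1 in the annotation, so that reads of these pairs may be shared, and whether counting used strand is not given in the sources used here. Noncoding genes are also annotated on the opposite strand of many right-end genes, with 2 each at sul2, yhb1, put4 and cat1 and 3 at klf1. None is annotated opposite gdt1, SPAC186.04c, ftm4, pfl9, SPAC186.06 or isp5. Whether reads from the other strand entered the counts was not tested.

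The pair at the inner edge, SPAC1039.02 and SPAC1039.01, fell in both genotypes. SPAC1039.02 belongs to a phosphatase family that includes extracellular nucleotidases. It had 106 and 97.9 CPM in clr4oe, 115, 125 and 122 CPM in K587A and 213, 205 and 219 CPM in TetR-Mit1. The clr4oe and K587A libraries lay far below TetR-Mit1, and clr4oe lay below K587A. It fell by 1.06 ± 0.05 on the log2 scale in clr4oe and by 0.81 ± 0.04 in K587A (edgeR adjusted p = 1.893e-15 and 3.886e-14), and by 0.25 ± 0.05 in clr4oe against K587A (edgeR adjusted p = 1.666e-04). The amino acid permease gene SPAC1039.01 had 46.9 and 52.8 CPM in clr4oe, against 55.0, 48.2 and 46.4 CPM in K587A and 90.1, 97.0 and 104 CPM in TetR-Mit1. The clr4oe and K587A libraries overlapped and all lay below TetR-Mit1. SPAC1039.01 fell by 0.96 ± 0.08 in clr4oe and by 0.96 ± 0.07 in K587A (edgeR adjusted p = 3.787e-11 and 9.391e-12). Its log2 fold change between clr4oe and K587A was -0.01 ± 0.08 (edgeR adjusted p = 0.9358).

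The calls of the 29 genes against TetR-Mit1 were then set side by side. There were 6 genes lower in both genotypes, namely SPAC750.01, SPAC186.06, gdt1, SPAC186.04c, SPAC1039.02 and SPAC1039.01. The 2 higher in both were yhb1 and sul2. The 4 higher in clr4oe and lower in K587A were isp5, SPAC1039.08, SPAC1039.07c and SPAC1039.04. Higher in clr4oe and not called in K587A were 4 genes (gto1, SPAC1039.06, klf1 and SPAC1039.03), lower in clr4oe and not called in K587A were 3 (ftm4, pfl9 and put4), and lower in K587A and not called in clr4oe were 2 (cat1 and SPAC922.05c). The remaining 8 were called in neither. None was higher in K587A and lower in clr4oe. Since both comparisons share the TetR-Mit1 libraries, these joint counts are a description only. For no joint pattern is the share of all genes given here. Whether the right-end genes differ from the rest of the table in these patterns was therefore not tested. Among the 9 genes called in a single comparison, the direct test between clr4oe and K587A was called for all except SPAC922.05c, whose log2 fold change there was 0.05 ± 0.09 (edgeR adjusted p = 0.6325).

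Amino acid transporters recur among the right-end genes, so a list of amino acid and related permeases was read alongside. It named 13 genes, of which 11 were in the table and 3 (cat1, isp5 and put4) are right-end genes. The right-end permease SPAC1039.01, lower in both genotypes, was not on the list. In clr4oe 3 of the 11 rose and 4 fell, with a median log2 fold change of -0.08, and 63.6% were called, beside 65.1% of all genes. In K587A 1 rose and 7 fell, with a median of -0.20, where 27.3% of all genes were higher and 25% lower. Outside the right end, per1 averaged 18.6 ± 0.697 CPM in clr4oe, 35.6 ± 3.88 CPM in K587A and 78.1 ± 2.44 CPM in TetR-Mit1 (SD, n = 2, 3 and 3), and fell in both genotypes (log2 fold change -2.07 and -1.14, edgeR adjusted p = 2.74e-16 and 9.6e-13). In clr4oe aat1 and bsu1 also passed a log2 change of 0.5, at -0.63 and -0.56 (edgeR adjusted p = 2.82e-06 and 0.000368).

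Of 15 genes for heterochromatin and subtelomere factors, all tested, 2 rose and 7 fell in clr4oe, with a median log2 fold change of -0.12, and 60% were called, beside 65.1% of all genes. In K587A 4 rose and 2 fell, with a median of 0.04, and 40% were called, beside 52.3% of all genes. These counts include clr4 and mit1, the genes named in the genotypes. The clr4 gene was among the risen genes in clr4oe, with a log2 fold change of 2.31 (edgeR adjusted p = 1.59e-21). The mit1 gene was among the risen genes in K587A and the fallen genes in clr4oe. The part of the listed transcripts in the changes at the right end was not tested.

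The right end was then set beside the next 35 genes inward and the outermost 35 measured genes at 3 other chromosome ends. Among the next 35 genes inward, all tested, 1 was called with at least a 2-fold change in clr4oe against TetR-Mit1, where 7 of 29 right-end genes and 4.32% of all genes were. That gene was rnp24 (SPAC3G6.04), which encodes an RNA-binding protein, at a log2 fold change of -1.14 ± 0.08 (edgeR adjusted p = 5.29e-12). In K587A against TetR-Mit1 0 of the 35 were, where 4 of 29 right-end genes and 1.8% of all genes were. At any size 17 of the 35 were called there in edgeR, or 48.6%, beside 52.3% of all genes. Between clr4oe and K587A 3 of the 35 were called with at least a 2-fold change (rnp24, SPAC29B12.13 and SPAC3G6.07), or 8.57%. In that comparison 6 of 29 right-end genes and 7.8% of all genes were. In clr4oe against TetR-Mit1, at least 2-fold changes were called in 10 of 33 tested genes at the opposite, left end of chromosome I, 6 of 29 at the left end of chromosome II and 16 of 33 at the right end of chromosome II. In K587A against TetR-Mit1 they were called in 10 of 33, 7 of 29 and 3 of 33 of the same genes, and between clr4oe and K587A in 9 of 33, 9 of 29 and 11 of 33. The medians in clr4oe were -0.29, 0.12 and -0.69 at these 3 ends, and in K587A they were -0.32, -0.14 and -0.14. No test of the difference between ends was made.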

How the data were processed

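The deposited table holds whole-number read counts per gene for each library, per the file headers and the values, and the authors used STAR, SAMtools and DESeq2 with genome build ASM294v2, per the submitters' processing notes, with versions, strand setting and treatment of multiply mapping reads not given in the sources used here. Names, products, gene order, mRNA lengths and overlaps came from the RefSeq annotation of a later assembly, in which 4906 of 4915 identifiers were matched, so no coordinates or sequences are given. One model was fitted to all 8 libraries (edgeR 4.0.16 in R 4.3.3, TMM scaling, filterByExpr with a minimum count of 10, quasi-likelihood F test, genotype as the only term), and 28 genes were removed. P-values were adjusted by Benjamini-Hochberg over 4887 genes. Each log2 fold change has as its SE its own size over the square root of F. The spread between libraries (common biological coefficient of variation) came to 3.58%. The fit was tested on simulated data with known changes. Proteins were compared with blastp 2.17.0, and a copy needed at least 90% identity over at least 80% of the length of the right-end protein. Libraries of a genotype correlated at 0.9965 to 0.9975 and differed by more than counting noise, at a chi-square per degree of freedom of 2.753 to 6.085. The members and lists were chosen with earlier results of these data known. Genes named with values were all right-end genes, the called genes of both lists with a log2 change of at least 0.5, mit1, clr4 and close relatives, except that 1 gene of the lists is not reported here. The 8 genes drawn as bars, SPAC1039.02's relative, rnp24, SPAC29B12.13 and SPAC3G6.07 were chosen after their values were seen. Alternatives were 2 other scalings, 2 other filters, DESeq2 1.42.0, fits to 2 groups, a replicate block, a 2-fold threshold and each library left out.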

Additional observations from a re-analysis of the deposited data

How the results depend on the processing

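Counts of called right-end genes stayed within 1.5 times of those reported under the other scalings, filters, DESeq2, fits to 2 groups and single left-out libraries. Leaving out a library gave 16 to 19 in clr4oe against TetR-Mit1, 11 to 14 in K587A against TetR-Mit1 and 17 to 18 in clr4oe against K587A, and 2795 to 3053, 2269 to 2350 and 3163 to 3404 over all genes. A 2-fold threshold left 7, 4 and 6 right-end genes and 211, 88 and 381 of all genes, by its construction. Without the SPAC750 and SPAC186 genes, a choice made after seeing the data, 13, 10 and 12 of 23 tested genes were called. These are 56.5%, 43.5% and 52.2%, beside 65.1%, 52.3% and 71.7% of all genes. Leaving out the genes with a near-identical copy (SPAC750.01, ftm4 and the untested SPAC186.03) gave 17, 13 and 15. The medians ranged from -0.001 to 0.1, from -0.152 to -0.068 and from 0.112 to 0.246 over left-out libraries, and with upper-quartile scaling the clr4oe against K587A median was 0.122. The cause was not tested. A left-out clr4oe library leaves 1, whose spread is taken to be that of the other groups. In their deviations from the group means, same-numbered libraries of K587A and TetR-Mit1 correlated at 0.113, -0.0621 and 0.106. Differently numbered ones correlated at -0.167 to 0.0775. With so few libraries these values cannot tell whether equal numbers mark a shared culture, day or batch. With a replicate block 19, 13 and 18 right-end genes were called. It ended the gdt1 call in K587A, added sul2 in clr4oe against K587A and changed no other call. Further calls moved with scaling, filter or tool. Upper-quartile scaling ended the clr4oe calls of yhb1 and SPAC1039.07c, the K587A call of SPAC1039.04 and the SPAC922.06 call between clr4oe and K587A, and added cat1 in clr4oe (adjusted p = 0.0161) and yhb1 and SPAC922.04 between clr4oe and K587A. DESeq2 ended the clr4oe call of yhb1. Median-of-ratios scaling added SPAC922.06 in K587A, mmf2 in clr4oe and sul2 between clr4oe and K587A. At least 10 counts in every library added SPAC922.06 in K587A and sul2 between clr4oe and K587A, and the fit to 2 groups added SPAC922.06 in K587A. Signs changed in genes called neither before nor after. In K587A against TetR-Mit1 upper-quartile scaling gave atd2 0.001, SPAC922.04 0.009 and SPAC922.03 0.005. Between clr4oe and K587A it gave SPAC922.05c -0.016. The block gave mel1 -0.097 in clr4oe against TetR-Mit1, and SPAC869.09 0.11 and SPAC1039.01 0.001 in clr4oe against K587A, where SPAC1039.01 was 0.004 with median-of-ratios scaling, 0.007 with at least 10 counts in every library and 0.006 in DESeq2. Over left-out libraries, K587A against TetR-Mit1 ranged from -0.78 to 0.523 for mel1, -0.08 to 0.813 for SPAC869.09, -0.346 to 0.068 for pcm2, -0.084 to 0.096 for atd2, -0.026 to 0.015 for SPAC922.04, -0.055 to 0.03 for SPAC922.03, -0.01 to 0.039 for gto1, -0.026 to 0.09 for mmf2 and -0.055 to 0.006 for SPAC1039.06. In clr4oe against TetR-Mit1 the ranges were -0.377 to 0.926 for mel1, -0.208 to 0.705 for SPAC869.09, -0.102 to 0.299 for atd2 and -0.119 to 0.017 for SPAC922.04. In clr4oe against K587A they were -0.587 to 0.256 for SPAC869.09, -0.09 to 0.321 for atd2, -0.104 to 0.021 for SPAC922.04, -0.049 to 0.155 for SPAC922.05c, -0.077 to 0.075 for SPAC1039.01 and -0.184 to 0.039 for yhb1, called without the first clr4oe library (adjusted p = 0.0227). Depth limits the lowest tested genes, such as mel1, whose SE in clr4oe against TetR-Mit1 was 0.71 on the log2 scale.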
